A study of Homo sapiens with 12 samples.

Results

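The genes described here encode the subunits of the mitochondrial respiratory chain that are carried by the nuclear genome. They were taken by symbol, as genes of the NDUFA, NDUFB, NDUFC, NDUFS and NDUFV series, SDHA to SDHD, the UQCR genes, COX4 to COX8 and the ATP5 genes, from the probe sets annotated with 1 symbol. This gave 81 of 19775 genes on the array, of which 76 are protein coding in RefSeq. These 76 comprise 32 genes of complex I, 3 of complex II, 6 of complex III, 17 of complex IV and 18 of complex V. The other 5 are 2 pseudogenes (ATP5MC2P1 and COX6A1P1) and 3 antisense or divergent transcripts (NDUFB2-AS1, NDUFV1-DT and NDUFV2-AS1), and the counts below leave them out. The annotation lists NDUFA4 and NDUFA4L2 under their current symbols, COXFA4 and COXFA4L2, which the symbol rule does not match, so they are outside the counts and are given with complex IV. SDHB and UQCRFS1 were not analysed here, nor were NDUFS8, NDUFC2, NDUFS5 and UQCRH, whose probe sets carry several symbols.

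The samples are 12 Affymetrix arrays of 2 human lung adenocarcinoma cell lines, CL1-0 and CL1-5, the latter a more invasive subline of the former. Cells of each line were held in a microfluidic chip in serum-free medium for 2 h, either without a field (0 mV/mm) or in a direct-current field (EF in the labels) with a strength of 300 mV/mm. Each of the 4 groups (CL1-0 without field, CL1-0 with field, CL1-5 without field, CL1-5 with field) has 3 arrays, labelled as biological replicates 1, 2 and 3. All groups share the chip design, the serum-free medium and the trypsin used to collect the cells.

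The respiratory chain lies in the inner mitochondrial membrane. Complexes I and II pass electrons from NADH and succinate to ubiquinone, complex III passes them on to cytochrome c, and complex IV, cytochrome c oxidase, hands them to oxygen. Complexes I, III and IV pump protons, and complex V, the ATP synthase, uses the proton gradient to make ATP. Most subunits are nuclear-encoded and are made in the cytosol, while a small core is encoded by mitochondrial DNA, so the nuclear genes are widely expressed and some complex IV subunits come in tissue-specific isoforms.

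The deposited values are array intensities, and levels below are their log2, called log2 signals. The median signal of an array lay between 60.7 and 72.4. A gene was tested when its probe set lay above the median of its array on at least 3 arrays, which 73 of the 76 coding genes and 13882 genes in all did. The 3 that did not were COX7A1, COX7B2 and COX8C. Differences are between mean log2 signals, each followed by its standard error (SE), from 1 limma fit of all 12 arrays, and a gene is said to pass the test at a Benjamini-Hochberg adjusted p of 0.05 over the 13882 genes. As a check of the labels, 4 of 10 epithelial markers lay above the array median on all 12 arrays, 7 on all CL1-0 arrays and 4 on all CL1-5 arrays. EPCAM and SPINT2 did so on no CL1-5 array, and CLDN7 on no array. None of 6 leukocyte markers did so on all 12 arrays, and PTPRC, CD14, LYZ and HLA-DRA did so on none. CD3E lay above the median on 3 arrays of each line, and ITGAM on 5 CL1-0 and 2 CL1-5 arrays. Among 8 fibroblast markers 1 (COL1A1) did so on all 12 arrays and 2 (COL1A1 and PDGFRA) on all CL1-5 arrays. Of 7 endothelial markers 3 (PECAM1, TIE1 and ESAM) lay above the median on all CL1-5 arrays and 1 (PECAM1) on all CL1-0 arrays. CDH5, VWF and TEK did so on no array of either line, and KDR on 1 CL1-0 and 5 CL1-5 arrays.

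Replicate 1 of every group lacked the signal of dap, a poly-A control transcript added during labelling: its signal was 3.64 to 14.5 on these 4 arrays and 1250 to 1660 on the other 8. The respiratory chain genes moved with this split. Between arrays with and without the spike-in signal the median shift of the 73 genes was 0.287, against 0.07 over all genes, and 45 genes (61.6%, against 52.3% of all genes) shifted the same way in all 4 groups, 38 of them higher and 7 lower on the arrays with the signal. Over all genes 3916 were higher and 3348 lower in this way. The largest shifts were 1.58 for NDUFA5, -1.27 for COX6B2, 1.02 for SDHC and 0.87 for SDHD. Arrays of the same replicate number also correlated positively in every pair of groups compared, most strongly for replicate 1. Replicate 3 correlated better with another number between the CL1-5 groups (0.284 against 0.187) and between the lines without the field (0.199 against 0.189). Values from a fit with the replicate number as a block therefore stand beside those of the unblocked fit where they change a call or a count. What part the missing spike-in plays in any result was not tested.

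The genes were among the strong signals of the arrays. Of the 76 coding genes 69 lay above the array median on all 12 arrays and 3 on none. Each gene was read by 1 probe set, the one with the highest mean, although 44 genes had several. The median SE of a comparison of 2 groups was 0.221 for these genes and 0.367 over all genes, and the median SD within a group was 0.283 and 0.459. The widest spread was that of ATP5MF (SD 1.71), a subunit of the membrane part of complex V whose single-symbol probe set lies low, at a mean of 5.25, while a probe set shared with ARMC2-AS1 reads 13.55 to 13.89 in the 4 groups.

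**Figure D1:**
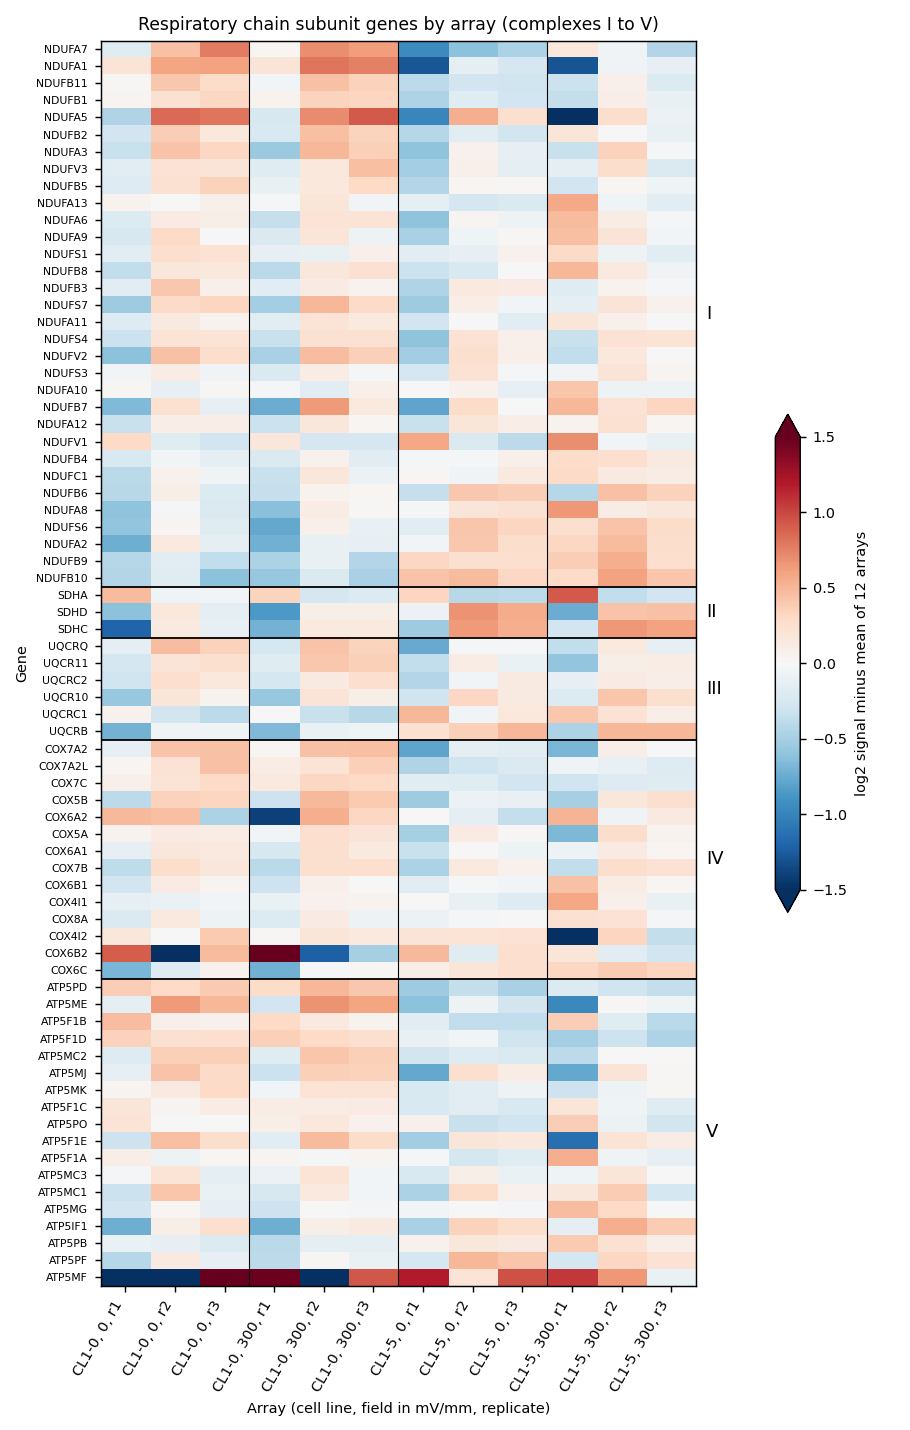
Log2 signal of each coding respiratory chain gene tested on each of the 12 arrays, as the difference from that gene's mean over all arrays (colour scale in log2 units), with genes grouped by complex I to V and arrays by group and replicate. Replicate 1 of each group stands apart in many rows, for example NDUFA5, SDHC and SDHD, and a few genes such as NDUFB10, NDUFB9 and ATP5PD separate the lines.

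Between the lines the subunits did not move as 1 block. A few single subunits differed: NDUFB9 and NDUFB10 were higher in CL1-5, and COX7C and ATP5PD lower, both without and with the field. Without the field, 2 of the 73 genes were higher in CL1-5 and 5 lower, which is 9.59% of them, while 18% of all genes tested passed (9.03% higher and 8.93% lower). With the field, 3 were higher and 3 lower, 8.22% against 19.4% of all genes (9.81% higher and 9.63% lower). The median difference of the 73 genes was -0.17 without the field and 0.02 with it, against -0.03 and -0.083 over all genes. In such bulk RNA, fewer cells expressing a gene and less RNA of it per cell cannot be told apart. The comparisons of the lines without and with the field use different arrays, and the sign of the difference was the same in both for 56 of 73 genes (76.7%), against 80.9% of all genes.

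The counts depended on whether the replicate number was taken as a block. With the block, 10 genes were higher and 17 lower in CL1-5 without the field (37% of the 73, against 35.5% of all genes, 16.7% higher and 18.8% lower), and 11 higher and 13 lower with it (32.9% against 38.1%, 17.3% higher and 20.8% lower). All genes that passed in the unblocked fit also passed with the block, 7 of 7 and 6 of 6. The genes that passed in both field settings were 4 of the 73 in the unblocked fit (5.48%, against 14.3% of all genes). With the block they were 18 (24.7%, against 28%), 8 higher and 10 lower in CL1-5 in each. With quantile normalization, which gives all arrays the same distribution, the unblocked counts were 2 higher and 7 lower without the field (18.1% of all genes passed, 8.9% higher and 9.24% lower). With the field they were 2 higher and 5 lower (19.4%, 9.96% higher and 9.4% lower). Centring the arrays on their median gave 1 higher and 5 lower without the field. The share of all genes under this scaling is not given here, so this count has no measure to set beside it. Counted without a model, the 2 lines' arrays did not overlap for 6 genes higher and 14 lower in CL1-5 without the field (27.4%, against 34% of all genes, 16.1% higher and 17.9% lower), and for 8 and 5 with it (17.8% against 35.8%, 16.8% higher and 19% lower).

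**Figure D2:**
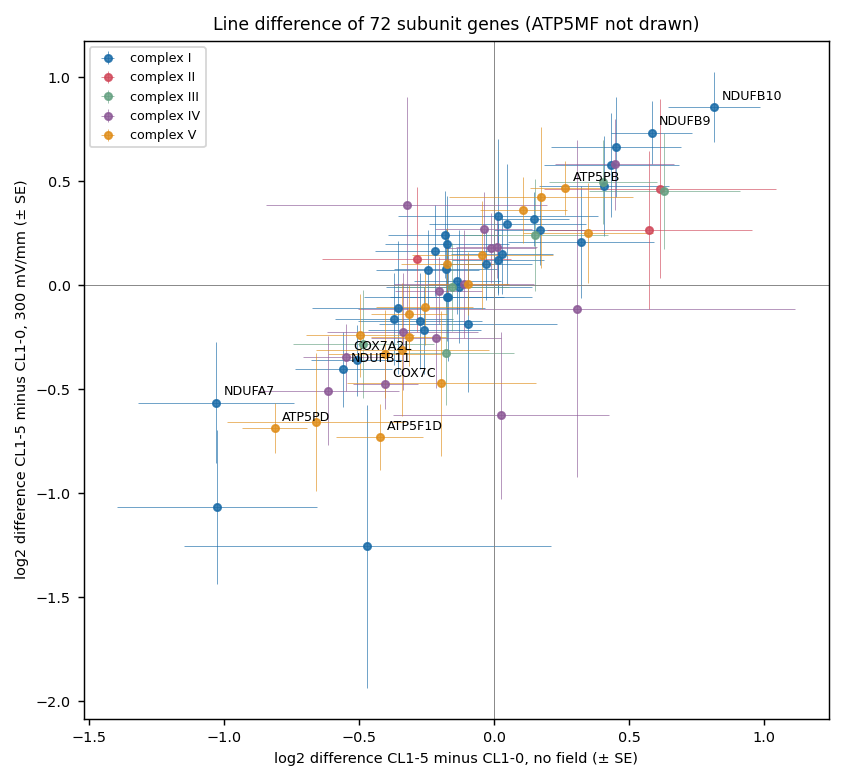
Difference between the lines (CL1-5 minus CL1-0, log2 units) without the field (x axis) and with the field (y axis) for the tested coding genes, coloured by complex, with the SE as lines; ATP5MF is not drawn. Labelled genes passed the test in at least 1 setting. NDUFB9 and NDUFB10 lie in the upper right corner, ATP5PD and COX7C in the lower left.

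Complex I held the 2 genes that were higher in both settings. NDUFB10, an accessory subunit of its membrane arm, read 12.02, 12.28 and 11.84 on the CL1-0 arrays and 12.89, 12.93 and 12.77 on the CL1-5 arrays without the field. With the field it read 11.89, 12.24 and 11.97 in CL1-0 and 12.74, 13.06 and 12.87 in CL1-5. Every CL1-5 array lay above every CL1-0 array, and the differences were 0.81 ± 0.17 (SE, n = 3 and 3; limma adjusted p = 0.00667) and 0.86 ± 0.17 (adjusted p = 0.00473). NDUFB9, another accessory subunit of the membrane arm, read 13.47, 13.74 and 13.53 in CL1-0 and 14.21, 14.14 and 14.15 in CL1-5 without the field. Its arrays also did not overlap, and it was higher in CL1-5 by 0.58 ± 0.15 (adjusted p = 0.0176) without the field and by 0.73 ± 0.15 (adjusted p = 0.00464) with it. The call without the field was lost on leaving out replicate 1 of CL1-0 (adjusted p = 0.061), its replicate 3 (0.0629) or CL1-5 replicate 3 (0.0515), and when arrays were centred on their median (0.0858). A further probe set of NDUFB10 gave 0.72 and 0.59.

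In the opposite direction, NDUFA7 and NDUFB11 were lower in CL1-5 without the field. NDUFA7, an accessory subunit of the peripheral arm, read 10.28, 10.9 and 11.23 in CL1-0 and 9.5, 9.84 and 9.98 in CL1-5, a difference of -1.03 ± 0.29 (adjusted p = 0.0279). With the field its difference was -0.56 ± 0.29 (adjusted p = 0.21). The call was lost on leaving out CL1-0 replicate 2 (adjusted p = 0.0891) or 3 (0.118) or CL1-5 replicate 1 (0.0851) or 2 (0.063), with the mean of its probe sets (0.172) and with only the groups compared (0.0588). The other probe set of NDUFA7, with a mean of 6.28, gave -0.8 without and -0.88 with the field (SE 0.66). NDUFB11, a membrane arm subunit encoded on the X chromosome, read 13.12, 13.5 and 13.37 in CL1-0 and 12.71, 12.81 and 12.8 in CL1-5. Its arrays did not overlap between the lines, and its difference of -0.56 ± 0.18 lay at the edge of the threshold (adjusted p = 0.0493, and 0.00209 with the block). Leaving out any array of these 2 groups other than replicate 1 of CL1-0 ended the call, with adjusted p of 0.168 and 0.133 without replicates 2 and 3 of CL1-0 and of 0.108, 0.0996 and 0.11 without replicates 1, 2 and 3 of CL1-5. Leaving out an array with the field, which changes only the shared spread, ended it for replicates 2 and 3 of CL1-0 (0.0587 and 0.0706) and of CL1-5 (0.0503 and 0.0643). It also ended with arrays centred on their median (0.0655), with no filter (0.0783) and with only the groups compared (0.0713). With the field NDUFB11 was also lower in CL1-5, by -0.4 ± 0.18, and did not pass the unblocked test.

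NDUFA1, a small X-linked membrane arm subunit, had as large a difference as NDUFA7 without passing the unblocked test. It read 13.4, 13.79 and 13.81 in CL1-0 and 11.92, 13.06 and 12.95 in CL1-5 without the field, and 13.39, 14 and 13.96 against 11.91, 13.15 and 13.08 with it. In each pair of equal replicate number CL1-5 was lower, and replicate 1 of CL1-5 was the lowest array in both settings. The differences were -1.02 ± 0.37 (adjusted p = 0.0754) and -1.07 ± 0.37 (adjusted p = 0.0609), and with the block adjusted p was 0.000433 and 0.000301. A further 3 subunits passed in both settings with the block and in neither without it. They were NDUFB1, with differences of -0.51 and -0.36 (adjusted p = 0.00228 and 0.0154 with the block), NDUFA2 with 0.45 and 0.66 (0.0275 and 0.00311), and NDUFS6 with 0.43 and 0.58 (0.0224 and 0.00447).

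The catalytic core of complex I, which carries the flavin and the iron-sulfur clusters, showed no called difference between the lines with or without the block. The 5 nuclear-encoded core subunits given here did not pass in either setting. Without and with the field the differences were 0.05 and 0.29 for NDUFV1, the NADH-binding flavoprotein, -0.10 and -0.18 for NDUFV2, -0.18 and 0.08 for NDUFS1, the largest subunit, -0.03 and 0.10 for NDUFS3, and -0.17 and -0.05 for NDUFS7. The SE was 0.29 for NDUFV1 and 0.19 for NDUFS1.

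Complex II, succinate dehydrogenase, also serves the citric acid cycle, and 3 of its subunits could be read. SDHC and SDHD, its membrane anchors, had the higher means in CL1-5, and SDHA, the flavoprotein that oxidises succinate, the lower mean without the field. SDHC read 10.34, 11.67 and 11.42 in CL1-0 and 11.01, 12.18 and 12.08 in CL1-5 without the field. SDHD read 11.6, 12.38 and 12.09 in CL1-0 and 12.13, 12.89 and 12.78 in CL1-5. For both genes the arrays of the lines overlapped because replicate 1 was low in each line. The differences were 0.61 ± 0.43 for SDHC (adjusted p = 0.392, and 0.00232 with the block) and 0.57 ± 0.38 for SDHD (0.357, and 0.00611 with the block). With the field they were 0.46 for SDHC (0.509, and 0.0111 with the block) and 0.27 for SDHD (0.682, and 0.146 with the block). Other probe sets of SDHC with means above 11 gave 0.23, 0.41 and 0.35 without the field and 0.46, 0.74 and 0.54 with it. Their SEs were 0.17, 0.21 and 0.22, smaller than that of the one used. Dimmer ones, with means of 8.32 and 8.3, gave 1.1 and 0.34 without the field and 1.28 and -0.13 with it. SDHA differed by -0.29 ± 0.35 without and 0.12 ± 0.35 with the field, and replicate 1 was its highest array in every group.

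In complex III no gene passed the unblocked test. UQCRB, a subunit at the ubiquinone-binding site, read 13.57, 14.23 and 14.23 in CL1-0 and 14.51, 14.63 and 14.78 in CL1-5 without the field, with no overlap. Its difference was 0.63 ± 0.28 (adjusted p = 0.151, and 0.00411 with the block). With the field it was 0.45 (0.3, and 0.0226 with the block). Another probe set of UQCRB, with a mean of 14.22 against 14.28 for the one used, gave 0.65 and 0.67 with a smaller SE of 0.18. Its dimmer probe sets, with means of 9.73 and 5.65, gave 1.17 and 1.72 without the field and 1.07 and 2.26 with it. The call for UQCRB with the block was made on the brightest probe set alone, and its other probe sets were also higher in CL1-5 in both settings. UQCRC1, a core subunit facing the matrix, differed by 0.40 and 0.50 (adjusted p = 0.197 and 0.102, and 0.0127 and 0.00362 with the block). With the block, 2 of the 6 genes of complex III were higher and 1 lower in CL1-5 in each setting. The shares of all genes were then 16.7% higher and 18.8% lower without the field, and 17.3% and 20.8% with it. UQCRQ differed by -0.48 without and -0.28 with the field. CYC1, the cytochrome c1 subunit that the symbol rule leaves out, differed by 0.25 and 0.28 and did not pass. Of the 3 tested subunits listed as outside the rule (CYC1, NDUFAB1 and COXFA4), none passed the unblocked test, and the list's medians were -0.22 and -0.08. NDUFAB1, the acyl carrier protein of complex I, differed by -0.22 and -0.08, and COXFA4 was the 1 that passed as lower with the block in both settings.

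Complex IV held COX7C and COX7A2L, both lower in CL1-5. COX7C, a small structural subunit, read 14.52, 14.65 and 14.73 in CL1-0 and 14.27, 14.26 and 14.16 in CL1-5 without the field, and 14.59, 14.76 and 14.74 against 14.14, 14.25 and 14.26 with it. No array overlapped in either setting, and the differences of -0.40 ± 0.12 (adjusted p = 0.0384) and -0.47 ± 0.12 (adjusted p = 0.0168) were small. Other probe sets of COX7C gave -0.51 and -0.54 without the field and -0.41 and -0.39 with it. Without the field the call was lost on leaving out CL1-0 replicate 2 (adjusted p = 0.106) or 3 (0.139), or CL1-5 replicate 1 (0.0623), 2 (0.0845) or 3 (0.125). Arrays with the field, which change only the shared spread, ended it too when CL1-0 replicate 2 (0.0555) or 3 (0.0616) or CL1-5 replicate 2 (0.0526) was missing. The call with the field was lost on leaving out CL1-0 replicate 2 (0.0659) or 3 (0.067), with no filter (0.0586), with the mean of its probe sets (0.0674) and with only the groups compared (0.0789). No filter (0.117) and only the groups compared (0.0918) also ended the call without the field.

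COX7A2L, which helps to join complexes III and IV in supercomplexes, read 12.93, 13.12 and 13.34 in CL1-0 and 12.45, 12.6 and 12.69 in CL1-5 without the field. The difference was -0.55 ± 0.16 (adjusted p = 0.0313), and -0.35 with the field (0.156, and 0.0349 with the block). Leaving out CL1-0 replicate 2 (0.0827) or 3 (0.133), or CL1-5 replicate 1 (0.0874), 2 (0.0768) or 3 (0.0542), ended the call, as did no filter (0.0532) and only the groups compared (0.0931). COX7A2, the widely expressed form of subunit 7A, had differences of -0.61 and -0.51 (0.132 and 0.207 unblocked, 0.00063 and 0.0021 with the block). COX6C differed in the other direction by 0.45 and 0.58 (0.201 and 0.0873 unblocked, 0.0351 and 0.00893 with the block).

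The complex IV isoforms known from muscle, lung or testis differed in whether they lay above the array median. COX4I2 lay above it on 11 of 12 arrays, COX6A2 on 9, COX6B2 on 5, and COX7A1, COX7B2 and COX8C on none. COX7A1, the muscle form of subunit 7A, read 1.3 to 2.88 on all 12 arrays and was never tested. COX4I2, the oxygen-regulated form that is abundant in lung, read 7 to 7.39 on all CL1-0 and CL1-5 arrays without the field, and 5.51, 7.32 and 6.64 in CL1-5 with it. Its line difference was 0.02 ± 0.40 without and -0.63 ± 0.40 with the field (adjusted p = 0.324). COX4I1, the general form, read 14.06 to 14.25 without the field and differed by -0.01 ± 0.17. COX6A2 and COX6B2, the muscle and testis forms, differed by -0.32 ± 0.52 and 0.31 ± 0.81 without the field, and their general partners COX6A1 and COX6B1 by -0.21 and -0.04. COX8A, the general form of subunit 8, differed by 0.01 ± 0.15. COX8C, the testis form, read 0.71 to 2.97 without the field and did not reach the array median on any array.

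COXFA4 (formerly NDUFA4), now counted as a subunit of complex IV, read 13.98, 14.38 and 14.28 in CL1-0 and 13.24, 13.8 and 13.76 in CL1-5 without the field. With the field it read 14.01, 14.4 and 14.49 against 12.82, 13.96 and 13.9. The lines' arrays did not overlap in either setting. Its differences were -0.61 ± 0.29 (adjusted p = 0.18, and 0.00697 with the block) and -0.74 ± 0.29 (0.099, and 0.00217 with the block). COXFA4L2 (formerly NDUFA4L2), a related protein known to be induced by low oxygen, lay above the array median on 5 arrays. It differed by -0.58 ± 0.80 without and -2.38 ± 0.80 with the field (adjusted p = 0.713 and 0.0575, and 0.519 and 0.0102 with the block). Under the field in CL1-5 it read 2.93, 3.49 and 5.23, against 4.99, 5.04 and 6.34 without it, and did not pass (adjusted p = 1, and 0.681 with the block).

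Complex V held the gene with the smallest adjusted p of the 73 in each setting, ATP5PD. ATP5PD encodes subunit d of the peripheral stalk, which holds the catalytic head still. It read 14.59, 14.52 and 14.61 in CL1-0 and 13.69, 13.86 and 13.73 in CL1-5 without the field. With the field it read 14.5, 14.72 and 14.63 in CL1-0 and 14.01, 13.92 and 13.86 in CL1-5. Both settings separated the lines, by -0.81 ± 0.12 (adjusted p = 0.000718) and -0.69 ± 0.12 (adjusted p = 0.00227). Its second probe set, with a mean of only 7.12, gave -0.26 and -0.52, and the mean of both did not pass (adjusted p = 0.179 and 0.118).

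ATP5PB, subunit b of the same stalk, had the opposite direction. It read 14.18, 14.45 and 14.45 in CL1-0 and 14.98, 14.81 and 14.68 in CL1-5 with the field, a difference of 0.47 ± 0.13 (adjusted p = 0.0259). Without the field the difference was 0.26 (0.206). It did not pass when CL1-0 replicate 1 (0.1) or 3 (0.0524) or CL1-5 replicate 1 (0.0591) or 2 (0.0609) with the field was left out, nor with quantile normalization (0.0637), no filter (0.0774), the mean of its probe sets (0.166) or only the groups compared (0.108). The other probe set of ATP5PB, with a mean of 7.79, gave 1.15 without and 0.81 with the field (SE 0.55). ATP5F1D, the delta subunit of the rotating central stalk, read 11.43, 11.38 and 11.33 in CL1-0 and 10.57, 10.77 and 10.61 in CL1-5 with the field, lower, with a difference of -0.73 ± 0.16 (adjusted p = 0.00777). Without the field it read 11.42, 11.31 and 11.33 against 10.97, 11.04 and 10.78, a difference of -0.42 ± 0.16 (0.0959, and 0.0169 with the block). The other probe set of ATP5F1D, with a mean of 9.5, gave -0.28 without and -0.9 with the field (SE 0.52). The mean of its probe sets ended the call with the field (0.0831). ATP5ME, a small subunit of the membrane part, differed by -0.66 in both settings (0.21 and 0.198 unblocked, 0.00154 and 0.00142 with the block). ATP5IF1, the inhibitor of the synthase, differed by 0.17 and 0.42 (0.806 and 0.441 unblocked, 0.282 and 0.0125 with the block).

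**Figure D3:**
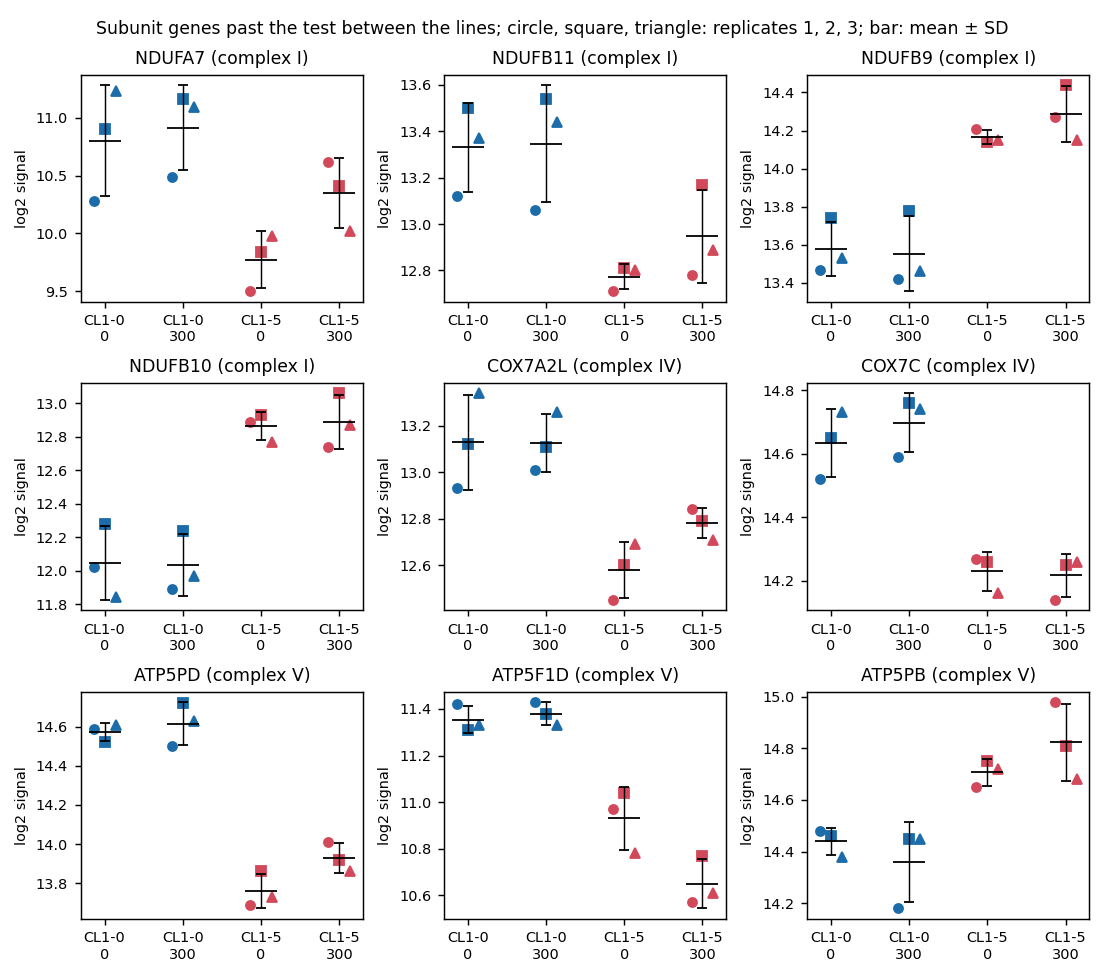
Log2 signal on each array (points) of the genes that passed the test between the lines in at least 1 field setting, with line and field (mV/mm) on the x axis; circles, squares and triangles are replicates 1, 2 and 3, and bars are the mean ± SD of 3 arrays. The y axes do not start at 0 and differ between genes. NDUFB9 and NDUFB10 are higher and ATP5PD and COX7C lower in CL1-5 without overlap, with or without the field.

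By complex, the median line difference without the field was -0.153 for complex I, 0.575 for complex II, -0.001 for complex III, -0.159 for complex IV and -0.226 for complex V. With the field the medians were 0.09, 0.266, 0.118, -0.069 and -0.121. With the block, where 16.7% of all genes were higher and 18.8% lower without the field, 1 of 18 genes of complex V was higher and 8 lower in CL1-5. With the field, where the shares of all genes were 17.3% and 20.8%, complex V held 2 higher and 5 lower. The 32 genes of complex I held 4 higher and 4 lower without the field, and 5 and 4 with it. No test of a complex as a set was made.

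The field moved no single respiratory chain gene past the test in either line. None of the 73 genes passed for the field in CL1-0, in CL1-5, on average over the lines or in the difference between the lines, in the unblocked fit, with the block or with quantile normalization. Over all genes 0% passed each of these comparisons in the unblocked fit. At an unadjusted p under 0.05 there were 0 of the 73 genes in each of the 4 comparisons, against 133, 258, 136 and 150 of all genes. With the block 6 of the 73 (8.22%) had an unadjusted p under 0.05 in CL1-5, near the 7.1% of all genes (985), and 0 in CL1-0, against 318 of all genes (2.29%), and the smallest adjusted p in CL1-5 was 0.681.

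In CL1-5 most of the genes nevertheless had a slightly higher mean under the field. The difference was above 0 for 57 of the 73 genes (78.1%), against 48.9% of all genes, with a median of 0.139 against -0.008. In CL1-0 it was above 0 for 42 (57.5%, against 52.5%), with a median of 0.004. Compared pair by pair of equal replicate number, the median of the 73 genes in CL1-5 was 0.265, 0.11 and 0.04 for pairs 1, 2 and 3, while CL1-0 gave -0.012, 0.035 and 0.024. In CL1-5 the largest median was thus that of the arrays without the spike-in signal. In CL1-5 32 of the 73 genes (43.8%) were higher in all 3 pairs, against 14.2% of all genes, and 4 lower (5.48%, against 14.9%). In CL1-0 13 were higher (17.8%, against 15%) and 5 lower (6.85%, against 12.8%) in all 3 pairs.

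The size of this shift in CL1-5 depended on the scaling and on single arrays. With quantile normalization the median was 0.065, 51 genes (69.9%, against 50.6%) lay above 0, the pair medians were 0.115, 0.045 and 0.014, and 17 genes (23.3%, against 14.6%) were higher in all 3 pairs. With only the arrays that have the spike-in signal the median was 0.094. Without replicate 1 of CL1-5 without field it was 0.042, and without replicate 2 of CL1-5 with field 0.062. The median difference between the field responses of the lines, 0.124, was 0.04 with only the spike-in arrays and -0.013 without replicate 1 of CL1-0 with field. Leaving out replicate 1 of CL1-0 without field gave 0.235 and leaving out replicate 2 of CL1-0 with field gave 0.21. It was 0.061 without replicate 2 of CL1-0 without field, 0.033 without replicate 1 of CL1-5 without field, 0.193 without replicate 2 of CL1-5 without field, and 0.07 without replicate 2 of CL1-5 with field. No p can be given for these medians, because the genes are not replicates.

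**Figure D4:**
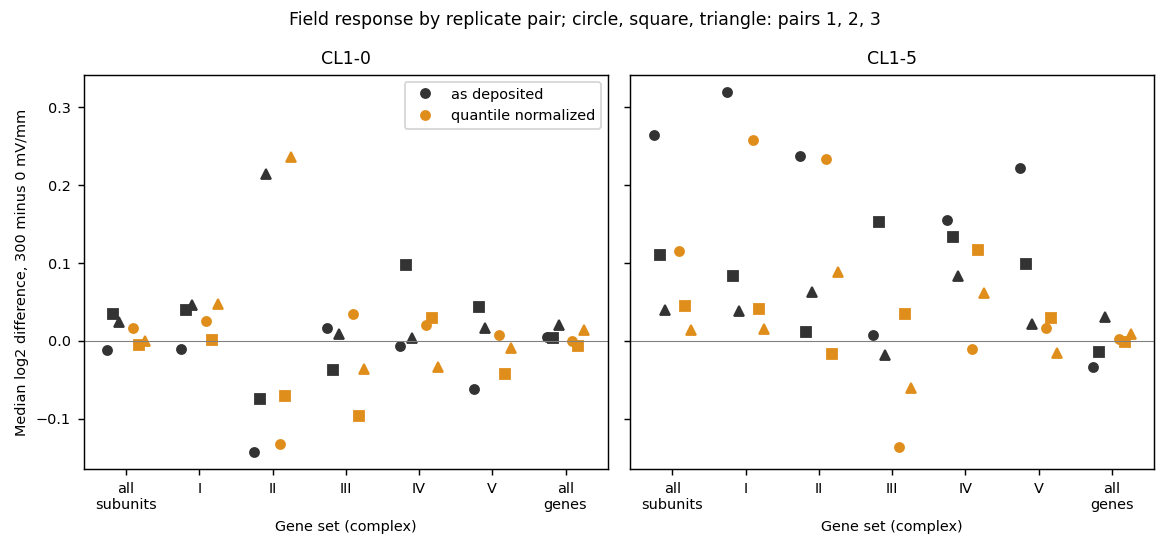
Median field response of the respiratory chain genes (300 minus 0 mV/mm, log2 units) in each pair of arrays of equal replicate number, for CL1-0 and CL1-5, as deposited and after quantile normalization, for all subunits, each complex I to V and all genes. Circles, squares and triangles are pairs 1, 2 and 3. The 3 CL1-5 pairs lie at 0.265, 0.11 and 0.04 as deposited and at 0.115, 0.045 and 0.014 after quantile normalization.

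In complex I the group means of 29 of 32 genes were higher in CL1-5 under the field, with a median difference of 0.153 (0.109 with quantile normalization). Its pair medians were 0.319, 0.083 and 0.039, with 28, 24 and 18 of the 32 genes above 0. The pair medians of complex IV, 0.155, 0.134 and 0.084, lay closer together, with 10, 13 and 11 of its 14 genes above 0. The medians were 0.104 for complex II, 0.071 for complex III, 0.169 for complex IV (10 of 14 genes above 0) and 0.118 for complex V (12 of 18). After quantile normalization they were 0.101, -0.012, 0.063 and 0.033. In CL1-0 the medians of complexes I to V were 0.017, -0.033, -0.002, 0.016 and 0.002.

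Without overlap of arrays, 7 genes were higher and 1 lower in CL1-5 under the field (11%, against 5.66% of all genes, 3.1% higher and 2.56% lower) and none in CL1-0 (0%, against 3.46%). The 7 were NDUFA7, NDUFB2, NDUFB4, COX6B1, COX6C, COX7A2L and ATP5PD, and the lower one was ATP5F1D. NDUFA7 read 9.5, 9.84 and 9.98 without the field and 10.62, 10.41 and 10.02 with it in CL1-5, a difference of 0.58 ± 0.29 (adjusted p = 1) with pair differences of 1.12, 0.57 and 0.04. NDUFA6, another subunit of the peripheral arm, differed by 0.41 (adjusted p = 1). COX4I1, the general form of subunit 4, differed by 0.29 ± 0.17 with pair differences of 0.59, 0.19 and 0.09. For NDUFA7 and COX4I1 the pair without the spike-in signal had the largest difference.

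Exactly 4 genes had lower values in all 3 pairs of CL1-5. ATP5F1D differed by -0.28 ± 0.16 (pairs -0.4, -0.27 and -0.17) and SDHD by -0.34 ± 0.38 (pairs -0.66, -0.25 and -0.12). NDUFA5, an accessory subunit of the peripheral arm of complex I, read 11.31, 12.83 and 12.53 without the field and 9.74, 12.55 and 12.2 with it (pairs -1.57, -0.27 and -0.33). Its lowest array by far was replicate 1 with the field, and its difference was -0.72 (adjusted p = 1, and 0.681 with the block). The other was ATP5PF, a peripheral stalk subunit of complex V, whose difference in pair 1 rounds to 0 (pairs 2 and 3 at -0.18 and -0.2). COX4I2 had a difference of -0.72 ± 0.40 that rests on pair 1 (-1.69, 0.11 and -0.58). ATP5MG, a subunit of the membrane part of complex V, differed by 0.27 ± 0.16, SDHA by 0.25 ± 0.35, UQCRC2 by 0.15 and UQCRB by -0.18, and none passed.

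In CL1-0 the genes with the smallest p in their complex had differences of -0.16 for NDUFS1, 0.2 for NDUFB7, -0.34 for COX6A2, 0.10 for COX4I1, 0.13 for UQCR11, -0.05 for UQCRC1, -0.08 for ATP5PB and 1.46 ± 1.23 for ATP5MF, the low probe set. In complex II SDHC differed by 0.25 ± 0.43 and SDHA by -0.17. COX8C, which was below the array median throughout and not tested, read 1.59, 2.97 and 1.86 in CL1-5 without the field and 5.69, 3.73 and 4.35 with it. In CL1-0 it read 0.92, 1.18 and 0.71 without and 0.57, 0 and 2.2 with the field.

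Genes that serve the chain without being subunits in the rule were taken from lists. For this and the following lists, the shares of all genes tested are the measure to set beside the counts. Without the field 9.03% of all genes were higher in CL1-5 and 8.93% lower, and with it 9.81% and 9.63%. With the block these shares were 16.7% and 18.8% without the field, and 17.3% and 20.8% with it. Among 14 genes of the electron carriers, 2 were higher and 1 lower in CL1-5 without the field and 2 higher and 2 lower with it. COQ5 and COQ4, of ubiquinone synthesis, were higher by 1.17 ± 0.26 and 0.81 ± 0.22 (adjusted p = 0.00832 and 0.0228) without the field. CYCS, cytochrome c, was lower, with differences of -0.88 ± 0.28 (0.048) without and -1.16 ± 0.28 (0.0123) with the field. Of 45 assembly factors 3 were higher and 0 lower without the field, and 3 higher and 3 lower with it. With the block the assembly factors held 7 higher and 4 lower, and 9 and 11. NDUFAF6 and TIMMDC1, which help to assemble complex I, were higher in both settings, by 1.56 and 1.35 and by 0.67 and 0.62. COX20, which helps to mature complex IV, was lower with the field (-1.45 ± 0.42, adjusted p = 0.032).

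Among 19 regulators of mitochondrial biogenesis 0 were higher and 2 lower in each setting, with medians of -0.36 and -0.40. LRPPRC, which stabilises mitochondrial messenger RNA, was lower, with differences of -1.63 ± 0.21 and -1.65 ± 0.21 (adjusted p = 0.000209 and 0.000195). POLG2, the accessory subunit of the mitochondrial DNA polymerase, was also lower (-0.97 and -0.84). With the block this list held 1 higher and 8 lower without the field and 1 and 10 with it. TFAM, which packages mitochondrial DNA, differed by 0.88 ± 0.44 and NRF1 by 0.01 ± 0.20, and neither passed. Of 6 genes of ATP export 2 were lower in each setting, SLC25A5, an ADP/ATP carrier (differences of -0.78 and -0.62), and VDAC3, an outer membrane channel (-1.68 and -1.86).

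Of 16 genes of the citric acid cycle 1 was higher and 1 lower without the field, and 0 higher and 3 lower with it. With the block these were 1 and 6, and 1 and 7. CS, citrate synthase, was lower with the field (-0.70 ± 0.20, adjusted p = 0.0261) and IDH3G, an isocitrate dehydrogenase subunit, in both settings (-0.58 and -0.56). Of 11 genes of uncoupling and reactive oxygen defence 2 were higher and 4 lower without the field and 1 and 4 with it. GPX1, a glutathione peroxidase, was higher by 2.73 ± 0.34 and 2.84 ± 0.34 (adjusted p = 0.000161 and 0.000127), and UCP2, an inner membrane carrier, lower, with differences of -2.18 and -2.53. No gene of these lists passed a field comparison.

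The promoters of the subunit genes were read from RefSeq (GRCh38.p14) in windows of 300 bases, 250 before to 50 after the start, which matched 65 of the 76 coding genes. Motifs of 3 factors known for respiratory genes were searched on both strands as exact letters. The NRF1 motif, a GC-rich palindrome with 1 free base, lay in 16 of 65 windows (24.6%), against 6.28% of all 27305 promoters. CCGGAAG, bound by GABP (also called NRF2), lay in 18 (27.7%, against 10.7%), and AAGATGGCG, bound by YY1, in 7 (10.8%, against 1.85%). Any of the 3 lay in 35 windows (53.8%, against 17%). Of the 7 genes that passed between the lines and have an entry, none held the NRF1 motif, 1 (ATP5PD) the GABP motif and 1 (NDUFA7) the YY1 motif.

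Of the 4 genes that passed in both field settings 3 have an entry, and the 250 bases before their starts are shown 5′ to 3′ on the strand of the gene, to set the gene with the smallest p beside genes without a match. ATP5PD lies on the minus strand (chr17:75046970-75047219), COX7C on the plus strand (chr5:86617691-86617940) and NDUFB10 on the plus strand (chr16:1959288-1959537). Capitals mark the GABP motif of ATP5PD, which lies on the opposite strand; the other sequences hold none of the 3 motifs.
ATP5PD: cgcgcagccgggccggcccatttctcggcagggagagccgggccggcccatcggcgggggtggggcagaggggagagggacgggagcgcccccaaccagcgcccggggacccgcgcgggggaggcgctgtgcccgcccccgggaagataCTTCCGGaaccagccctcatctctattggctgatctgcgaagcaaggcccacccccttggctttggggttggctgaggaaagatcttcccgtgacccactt
COX7C: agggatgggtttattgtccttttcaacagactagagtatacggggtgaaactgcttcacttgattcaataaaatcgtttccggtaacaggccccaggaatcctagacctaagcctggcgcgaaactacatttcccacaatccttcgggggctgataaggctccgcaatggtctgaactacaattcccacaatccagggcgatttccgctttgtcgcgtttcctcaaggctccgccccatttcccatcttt
NDUFB10: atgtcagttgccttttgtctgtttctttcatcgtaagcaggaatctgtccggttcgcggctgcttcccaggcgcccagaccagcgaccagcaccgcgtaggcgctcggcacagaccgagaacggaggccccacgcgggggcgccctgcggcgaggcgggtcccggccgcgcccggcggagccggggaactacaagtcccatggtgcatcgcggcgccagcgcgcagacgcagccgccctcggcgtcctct
A match is a run of letters and not a measured site, and no binding was measured here.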

How the data were processed

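Messenger RNA was measured on 12 arrays, 3 per group. The deposited values are linear array intensities made by the authors with MAS5, per the submitters' processing notes; the version is not given in the sources used. Signals below 1 were raised to 1 before log2. At least 3 arrays had to show a probe set above their own median, and the brightest remaining probe set (by mean log2) stood for each single-symbol gene, leaving 13882 genes. Groups were compared in R 4.3.3 (data.table package, version 1.17.8) by the lmFit and trended eBayes functions of limma 3.58.1, as 4 group means over 12 arrays, with Benjamini-Hochberg adjustment over all genes at 0.05. The number of arrays limits the precision. The steps were tested on simulated data.

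The genes, lists and naming rule were chosen with earlier results of these data known. All coding members may be named; those given in full are, per complex and comparison, up to 5 past the test in each direction or the 2 with the smallest p, with the minor isoforms and their partners, the SDH genes and the core of complex I. From each list up to 3 past the test in each direction may be named. TFAM, NRF1, CYC1, COXFA4, COXFA4L2 and the genes with no overlap under the field were chosen after their values were seen, as were those given for the block alone.

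The labels number the replicates and do not state a pairing. After group means were removed, arrays of equal number correlated at 0.609, 0.346 and 0.363 between the CL1-0 groups, 0.551, 0.423 and 0.187 between the CL1-5 groups, 0.471, 0.278 and 0.189 between the lines without the field and 0.424, 0.253 and 0.245 with it. All exceed 0.1, so the replicate block is given beside the unblocked fit. Replicate 3 correlated better with another number between the CL1-5 groups (0.284) and between the lines without the field (0.199), and the pairing and the spike-in batch share replicate 1. Alternatives were quantile normalization, centring on the array median, a floor of 5.05 (the 10th percentile), a stricter filter and none, the mean of probe sets, only the groups compared, the replicate block, the spike-in batch as a block or its arrays alone, and each array left out. Quantile normalization with the block, and counts over all genes matching the symbol rule, were added after seeing the data.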

Additional observations from a re-analysis of the deposited data

How the results depend on the processing

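The number of respiratory chain genes called between the lines, 7 without the field and 6 with it, depended on the fit. Without the field it was 4 with no filter, 3 with only the groups compared, 27 with the replicate block, 27 with the spike-in batch blocked, 26 with only the arrays that have the spike-in signal and 29 with quantile normalization and the replicate block. Leaving out 1 array gave 3 to 10, and it was 3 without replicate 2 or 3 of CL1-0 without field or without any of the 3 arrays of CL1-5 without field. With the field it was 2 with the mean of the probe sets, 24 with the replicate block, 24 with the spike-in batch blocked, 26 with only the spike-in arrays, 30 with quantile normalization and the replicate block, and 4 to 7 with 1 array left out. No respiratory chain gene passed a field comparison in any alternative run, and none called between the lines changed direction. The median differences ranged, with 1 array left out, from -0.235 to -0.024 for the lines without the field, from -0.05 to 0.089 with it, from -0.095 to 0.147 for the field in CL1-0, from 0.042 to 0.198 in CL1-5, from 0.021 to 0.149 for its average and from -0.013 to 0.235 for its difference between the lines. NDUFB10 in both settings and NDUFB9 with the field passed in all 23 alternatives. The signal over background limits COX7A1, COX7B2 and COX8C, which were not tested, and ATP5MF. The share of all genes called rose with the block too. Without the field it was 18% in the unblocked fit, 35.5% with the replicate block and 35.8% with quantile normalization and the block. With the field these shares were 19.4%, 38.1% and 38.3%. Shares of all genes for the other alternatives are not given here. The cause of the higher counts with a block was not tested.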

Other observations

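Probe sets of genes encoded by mitochondrial DNA, and those of subunits with several symbols, belong to none of the comparisons and were looked at after the other values were seen. ND2, a complex I subunit encoded by mitochondrial DNA, read 15.29 ± 0.55 (SD, n = 3) in CL1-0 and 14.6 ± 0.79 in CL1-5 without the field, and 15.25 ± 0.37 and 14.48 ± 0.23 with it. COX1, the catalytic subunit of complex IV, read 15.55 ± 0.32 and 15.14 ± 0.37 without the field, and 15.53 ± 0.16 and 15.26 ± 0.36 with it. The others did not all lie in the same direction. ND6 read 10.89 ± 1.88 in CL1-0 and 11.32 ± 1.59 in CL1-5 without the field, and 10.91 ± 2.38 and 11.4 ± 1.01 with it. The first of the pair of COX2 probe sets read 15.73 ± 0.37 and 15.54 ± 0.34, and 15.73 ± 0.14 and 15.76 ± 0.37, and the second 15.76 ± 0.33 and 15.57 ± 0.34, and 15.73 ± 0.12 and 15.76 ± 0.40. For ND4 one probe set read 15.66 ± 0.34 and 15.33 ± 0.50, and 15.6 ± 0.15 and 15.6 ± 0.52, and the other 15.57 ± 0.34 and 15.42 ± 0.37, and 15.58 ± 0.14 and 15.45 ± 0.14. COX3 read 11.96 ± 0.75 and 12.15 ± 1.15, and 12.21 ± 0.77 and 11.37 ± 1.33. The probe set shared by UQCRH and UQCRHL read 14.3 ± 0.05 and 14.36 ± 0.07 without the field, and 14.28 ± 0.07 and 14.63 ± 0.22 with it. These were not tested.

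Among the transcripts of the symbol rule that are not protein coding, NDUFV1-DT had a difference of -1.9 ± 0.71 under the field in CL1-0 (unadjusted p = 0.0206, limma adjusted p = 1), and NDUFB2-AS1 one of 1.4 ± 0.66 in CL1-5 (unadjusted p = 0.0551, limma adjusted p = 1). Counted over all 77 tested transcripts of the rule, 7 and 6 passed between the lines without and with the field, as over the coding genes alone.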
